A study of Mus musculus with 4 samples.

Results

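The genes described here are 10 genes of the FGF-ERK pathway, chosen by name by their place in it: the ligand Fgf4, the receptors Fgfr1 and Fgfr2, the phosphatases Dusp4 and Dusp6, the inhibitors Spry2, Spry4 and Spred1, and the transcription factors Etv4 and Etv5. They fill 11 of the 22138 gene entries, because Fgfr1 is listed under 2 Ensembl identifiers, and all 10 are protein coding. RNA was sequenced from TT2 cells, mouse embryonic stem cells labelled female with C57BL/6xCBA as strain, kept without feeder cells in serum medium with LIF. All cultures were transfected with siRNA at 100 nM and again, 24 hours later, at 50 nM, and were collected about 72 hours after the second transfection. The 2 control siRNA libraries therefore carry the same transfection history as the 2 Hnrnpk siRNA libraries and differ from them in the siRNA used. Hnrnpk encodes hnRNP K, a protein that binds RNA and DNA, and the title of the series names it as a partner of the histone methyltransferase SETDB1 in gene silencing.

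Embryonic stem cells secrete FGF4, which binds FGF receptors on the same and neighbouring cells and, through RAS, RAF and MEK, switches on the ERK kinases. ERK activity primes these cells to leave the pluripotent state, and in the blastocyst it directs cells of the inner cell mass towards primitive endoderm. The signal induces its own brakes: DUSP4 and DUSP6 remove the activating phosphates from ERK, Sprouty and SPRED proteins act between the receptor and RAF, and ETV4 and ETV5 carry the signal into transcription. Because they are induced by ERK, transcripts of these genes are often read as a gauge of the pathway.

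Hnrnpk itself measured 236 and 226 RPKM (reads per kilobase of transcript, scaled to the library's total of mapped reads) after control siRNA, against 68.0 and 70.5 RPKM after Hnrnpk siRNA, a ratio of the means of 0.3 in the direction of the labels. The RPKM columns summed to 359659 and 362836 in the controls and to 377825 and 390467 after Hnrnpk siRNA, so the sums differed by group. The read depth behind them is unknown, because whole reads could not be recovered from the values.

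The 10 genes did not move in 1 direction. Dusp4, Spry2 and Dusp6 rose, Fgf4, Etv4, Etv5, Spry4 and Spred1 fell, and Fgfr1 and Fgfr2 did not pass the test. A gene was called when limma's Benjamini-Hochberg adjusted p over all 12486 genes tested was under 0.05. By that rule 8 of the 10 were called, 3 higher and 5 lower, where the shares over all genes tested were 67.2% called, 32.2% higher and 35.0% lower. The count is thus close to the background and says little about these genes as a set. Their log2 changes, on the scale of log2(RPKM + 0.5), ran from -0.60 to 0.54 with a median of -0.20, where the median over all genes tested was -0.015. In size, the median change was 0.31, against 0.32 for all genes tested, and 8.51% of those were called with a log2 change of at least 1. In each of the 10 genes the 2 groups of libraries did not overlap, as in 84.7% of all genes tested. For 1 gene, an exact permutation test over 2 against 2 libraries cannot give a p below 0.333, so the calls rest on the spread that limma pools over genes.

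**Figure D1:**
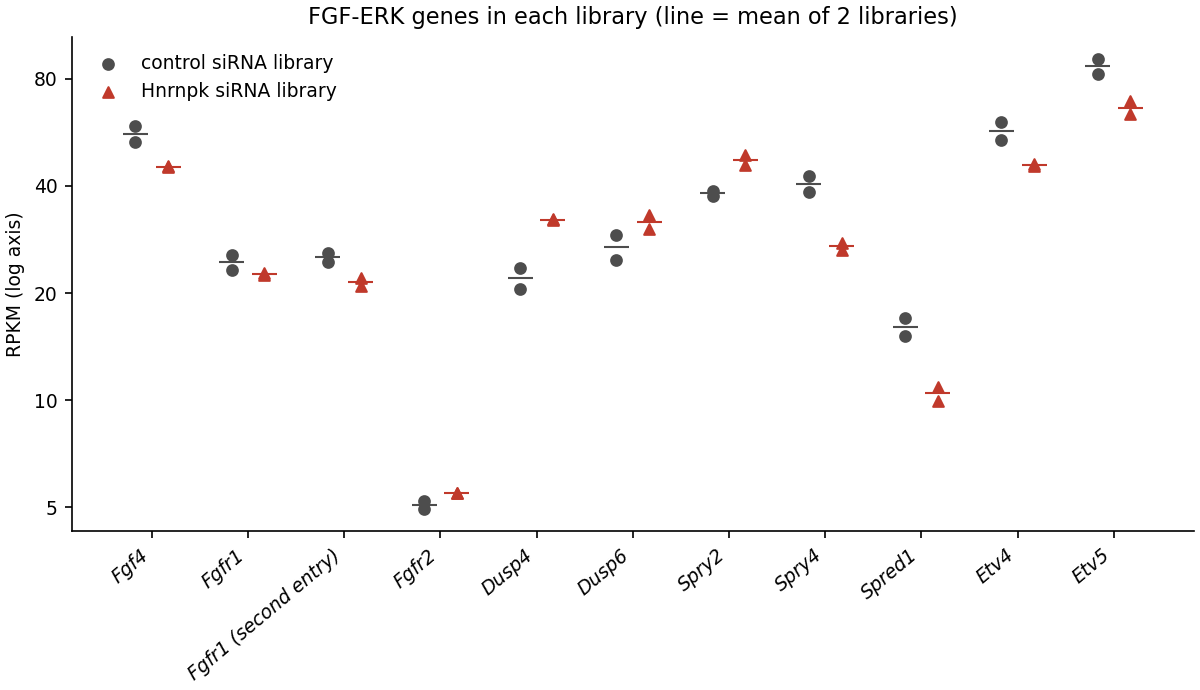
RPKM on a log axis for the 10 genes (Fgfr1 under both identifiers) in each control siRNA library (circles) and Hnrnpk siRNA library (triangles), with short lines at the mean of 2 libraries. Triangles lie above circles for Fgfr2, Dusp4, Dusp6 and Spry2 and below them elsewhere, and the range runs from 4.96 RPKM for Fgfr2 to 90.8 RPKM for Etv5.

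Promoter sequences are shown for Dusp6 and Spry2, which rose and hold a motif of the pathway, and for Fgf4, which fell and holds none of those searched. The repressor Capicua, which ERK inactivates, binds octamers found at several genes of this feedback group. RefSeq promoters (GRCm38.p6, 250 bases before to 50 after a start site) were at hand for Fgf4, Fgfr2, Dusp6, Spry2, Spred1 and Etv5, in 7 windows. None was at hand for Fgfr1, Dusp4, Spry4 and Etv4, which were not searched. The start sites of the Fgfr2, Spred1 and first Etv5 windows are not transcript starts in GENCODE M21. The octamers TGAATGAA, TGAATGGA, TCAATGAA and TCAATGGA were searched on both strands. They were found in Dusp6, at 2 places that begin 24 bases before the start site and at base 2 of the transcript, and in Spry2, beginning 54 bases before the start site. Of all 32851 RefSeq promoter windows of this length, 3.84% hold at least 1 octamer. The ETS sites CCGGAAGT and ACCGGAA, which overlap each other in CCGGAA (together in 6.27% of all windows), the cyclic AMP response element TGACGTCA (1.79%) and the serum response element (1.63%) were not found in the 7 windows. The sequences below run 5′ to 3′ on the gene's strand, from 250 bases before the start site to base 30 of the transcript, with octamers in capitals; they lie on the opposite strand, so the letters shown are their reverse complements. Dusp6 spans chr10:99262981-99263260 (plus strand), Spry2 chr14:105896790-105897069 (minus strand) and Fgf4 chr7:144861136-144861415 (plus strand).
Dusp6: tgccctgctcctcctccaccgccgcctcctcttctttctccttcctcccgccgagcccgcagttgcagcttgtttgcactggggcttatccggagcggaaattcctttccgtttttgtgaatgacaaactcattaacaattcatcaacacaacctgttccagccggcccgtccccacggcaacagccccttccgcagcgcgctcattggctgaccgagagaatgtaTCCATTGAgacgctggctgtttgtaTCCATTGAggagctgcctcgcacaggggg
Spry2: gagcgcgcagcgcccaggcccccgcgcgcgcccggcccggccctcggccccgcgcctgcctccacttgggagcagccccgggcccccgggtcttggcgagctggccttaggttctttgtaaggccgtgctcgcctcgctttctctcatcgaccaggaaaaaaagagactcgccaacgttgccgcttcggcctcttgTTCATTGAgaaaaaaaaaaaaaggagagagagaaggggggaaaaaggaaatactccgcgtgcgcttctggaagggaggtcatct
Fgf4: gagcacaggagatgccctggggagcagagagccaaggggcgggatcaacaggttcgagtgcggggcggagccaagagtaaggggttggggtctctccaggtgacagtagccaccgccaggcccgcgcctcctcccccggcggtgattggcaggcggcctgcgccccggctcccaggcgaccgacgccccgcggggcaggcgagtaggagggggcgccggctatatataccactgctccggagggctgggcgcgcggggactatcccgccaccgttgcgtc
In Dusp6 and Spry2, both called higher, an octamer lies close to the start site. The Dusp6 call did not hold under every setting. Fgfr2, also above the controls but not called, had no octamer in its window. The match describes the letters and does not show binding. Whether octamers go with the direction of change was not tested, and Dusp4, which rose most, had no window.

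The ligand fell modestly. Fgf4 (ENSMUSG00000050917, GRCm38 chromosome 7, 144847367 to 144865243, plus strand, protein coding) measured 59.1 and 53.0 RPKM in control replicates 1 and 2 and 45.1 and 45.4 RPKM in Hnrnpk siRNA replicates 1 and 2. Both Hnrnpk siRNA libraries were lower than either control library, and they lay closer to each other than the controls did. The means were 56.1 ± 4.32 and 45.3 ± 0.208 RPKM (SD, n = 2 each), a ratio of 0.808, with a change of -0.30 ± 0.0693 (SE) in log2 units (limma adjusted p = 0.00347).

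The receptors did not pass the test in their main entries. Fgfr1, the main FGF receptor of embryonic stem cells (ENSMUSG00000031565, chromosome 8, 25513654 to 25575718, plus strand), measured 25.6 and 23.2 RPKM in the controls and 22.5 and 22.8 RPKM after Hnrnpk siRNA, so the groups nearly touched. The means were 24.4 ± 1.69 and 22.7 ± 0.153 RPKM (SD, n = 2 each). For the main entry, the log2 change was -0.10 (95% interval -0.26 to 0.05, limma adjusted p = 0.211). A second Fgfr1 entry, ENSMUSG00000091895, has no position in GENCODE M21; it measured 26 and 24.4 RPKM in the controls and 22.0 and 21.0 RPKM after Hnrnpk siRNA. That entry was called lower, with a log2 change of -0.23 (95% interval -0.38 to -0.08, limma adjusted p = 0.0133). The sources used here do not say how reads were divided between these entries, which leaves the level and the call of Fgfr1 uncertain. Of the exonic bases of Fgfr1, 164 overlap Gm16159 on the opposite strand.

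Fgfr2, a receptor with its main early roles in primitive endoderm and trophectoderm (ENSMUSG00000030849, chromosome 7, 130162451 to 133123350, minus strand), was the lowest of the 10 genes. It measured 5.21 and 4.96 RPKM in the controls and 5.49 and 5.5 RPKM after Hnrnpk siRNA, without overlap. The log2 change was 0.10 (95% interval -0.07 to 0.28, limma adjusted p = 0.269), so the interval holds no change and also a rise of up to 0.28. Of its annotated exonic bases, 314 overlap the neighbouring gene Ctbp2 on the same strand.

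The 2 ERK phosphatases were both called higher, by different amounts. Dusp4, which acts in the nucleus (ENSMUSG00000031530, chromosome 8, 34807297 to 34819894, plus strand), measured 23.5 and 20.5 RPKM in the controls and 32.3 and 32.1 RPKM after Hnrnpk siRNA. Every Hnrnpk siRNA library was well above every control library, and the means were 22.0 ± 2.13 and 32.2 ± 0.109 RPKM (SD, n = 2 each), a ratio of 1.46. On the log2 scale it rose by 0.54 (SE 0.0756; adjusted p = 0.000167 by limma), the highest change of the 10 and a larger one than that of 71.7% of all genes tested.

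Dusp6, the cytoplasmic phosphatase with a strong preference for ERK (ENSMUSG00000019960, chromosome 10, 99263231 to 99267489, plus strand), measured 24.8 and 29.2 RPKM in the controls and 33.1 and 30.3 RPKM after Hnrnpk siRNA. The spread within each group was wide compared with the gap between them. The means were 27.0 ± 3.15 and 31.7 ± 1.99 RPKM (SD, n = 2 each), and the change was 0.23 ± 0.0862 (SE) in log2 units (limma adjusted p = 0.0365). This call rested on single libraries: without control replicate 1 the log2 change was 0.11 (adjusted p = 0.236). Leaving out Hnrnpk siRNA replicate 1 gave 0.17 (adjusted p = 0.192), and over all alternatives the adjusted p ran from 0.00185 to 0.236. The Dusp6 sequence printed above holds 2 Capicua octamers, the first before the start site and the other within the transcript.

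The Sprouty and SPRED inhibitors split. Spry2, with 1 octamer in the sequence above (ENSMUSG00000022114, chromosome 14, 105891947 to 105896819, minus strand), measured 38.8 and 37.4 RPKM in the controls and 45.7 and 49.0 RPKM after Hnrnpk siRNA. It was higher in both Hnrnpk siRNA libraries, with means of 38.1 ± 1.0 and 47.4 ± 2.33 RPKM (SD, n = 2 each) and a change of 0.31 ± 0.065 (SE) in log2 units (limma adjusted p = 0.00214). Its paralog Spry4 (ENSMUSG00000024427, chromosome 18, 38586247 to 38601415, minus strand) went the other way, from 38.4 and 42.7 RPKM in the controls to 27.6 and 26.5 RPKM after Hnrnpk siRNA. The means were 40.6 ± 3.05 and 27.1 ± 0.837 RPKM (SD, n = 2 each), a ratio of 0.667, with a change of -0.57 ± 0.0711 (SE) in log2 units (limma adjusted p = 7.68e-05). The 2 genes stood at nearly the same level in the controls and apart after Hnrnpk siRNA.

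Spred1, which brings the RAS inhibitor neurofibromin to the membrane (ENSMUSG00000027351, chromosome 2, 117121374 to 117182279, plus strand), showed the largest fall of the 10 genes. It measured 15.2 and 17 RPKM in the controls and 10.9 and 9.95 RPKM after Hnrnpk siRNA, with means of 16.1 ± 1.26 and 10.5 ± 0.702 RPKM (SD, n = 2 each) and a ratio of 0.650. On the log2 scale it fell by 0.60 (SE 0.0811; adjusted p = 0.000139 by limma), a change larger in size than that of 75.6% of all genes tested. Of its longest coding transcript, 2.8% matches transcripts of Vps35 at 95% identity or more; Vps35 rose from 169 and 162 to 230 and 235 RPKM, the direction opposite to that of Spred1.

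Etv4 and Etv5, ETS factors of the PEA3 family, were both called lower. Etv4 (ENSMUSG00000017724, chromosome 11, 101769742 to 101785371, minus strand) measured 53.8 and 60.5 RPKM in the controls and 46.1 and 45.4 RPKM after Hnrnpk siRNA. Both Hnrnpk siRNA libraries were below the controls, with means of 57.2 ± 4.70 and 45.8 ± 0.454 RPKM (SD, n = 2 each) and a change of -0.32 ± 0.0707 (SE) in log2 units (limma adjusted p = 0.00311). With each library's trend on GC content removed, the Etv4 log2 change was -0.17 and no longer called (adjusted p = 0.0781); over the alternatives this p ran from 0.000204 to 0.0781. Etv5 (ENSMUSG00000013089, chromosome 16, 22381309 to 22439719, minus strand), the most abundant of the 10 genes in both groups, measured 82.6 and 90.8 RPKM in the controls and 69.1 and 63.8 RPKM after Hnrnpk siRNA. The groups were well apart, with means of 86.7 ± 5.82 and 66.4 ± 3.76 RPKM (SD, n = 2 each). It fell by 0.38 on the log2 scale (SE 0.072; adjusted p = 0.00111 by limma). Of the longest Etv5 coding transcript, 42.8% matches Gm4798 at 95% identity or more. The Etv5 level therefore depends on how reads that match both were counted. Gm4798 has no entry under that symbol among the deposited genes, so its level is not known here.

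**Figure D2:**
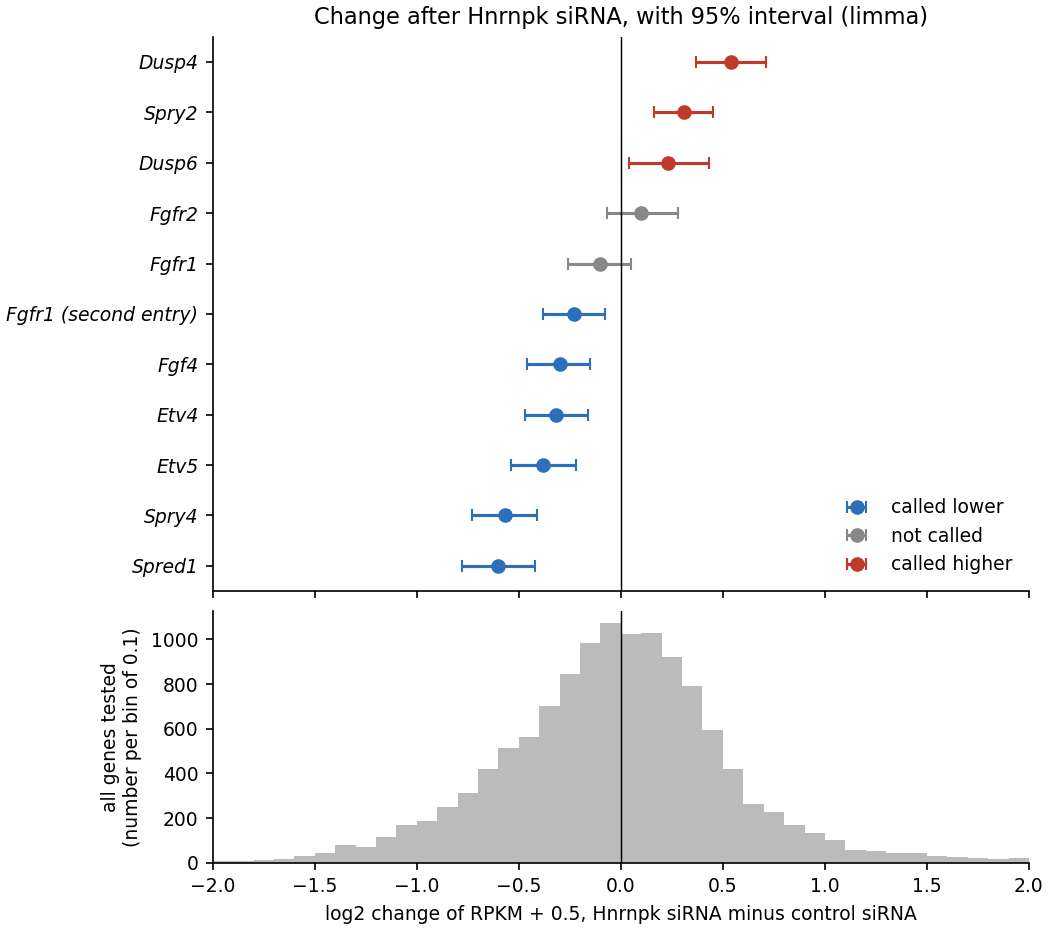
Upper panel, log2 change of RPKM + 0.5 (Hnrnpk siRNA minus control siRNA, n = 2 each) with limma's 95% interval for the 10 genes and the second Fgfr1 entry, coloured by call; lower panel, number of all 12486 genes tested per bin of 0.1, drawn from -2 to 2. The members, from -0.60 to 0.54, lie inside the bulk of the distribution.

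The order of the levels, which RPKM allows because it is per length, also changed. After control siRNA the means ran from Etv5 (86.7 RPKM) through Etv4 (57.2), Fgf4 (56.1), Spry4 (40.6), Spry2 (38.1), Dusp6 (27.0), Fgfr1 (24.4), Dusp4 (22.0) and Spred1 (16.1) to Fgfr2 (5.09). Neighbours whose control libraries overlapped were Etv4 with Fgf4, Spry4 with Spry2, Dusp6 with Fgfr1, and Fgfr1 with Dusp4, so their order is not resolved. After Hnrnpk siRNA, Spry2 (47.4 RPKM) stood in the second place and Spry4 (27.1 RPKM) in the seventh, and Dusp4 (32.2 RPKM) had moved from the eighth place to the fifth. There the overlapping neighbours were Spry2 with Etv4 and Dusp4 with Dusp6.

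Ratios of RPKM within a library put related genes on 1 scale. Spry4 to Spry2 was 0.988 and 1.14 in the controls and 0.604 and 0.540 after Hnrnpk siRNA, a difference in mean log2 ratio of -0.88. Dusp6 to Dusp4 was 1.05 and 1.43 in the controls and 1.03 and 0.944 after Hnrnpk siRNA, so the control libraries differed from each other more than the nearest libraries of the 2 groups did. The difference in its mean log2 ratio was -0.31, and it was -0.10 without control replicate 2 and -0.52 without control replicate 1. Etv5 to Etv4 stayed between 1.4 and 1.53 in all 4 libraries, with a difference of -0.07 in mean log2 ratio (-0.18 with GC trends removed, and -0.02 without Hnrnpk siRNA replicate 2 or -0.11 without Hnrnpk siRNA replicate 1). Fgfr2 to Fgfr1 was 0.204 and 0.214 in the controls and 0.243 and 0.241 after Hnrnpk siRNA, and Fgf4 to Fgfr1 went from 2.31 and 2.28 to 2.0 in both Hnrnpk siRNA libraries. The last pair of ratios uses the main Fgfr1 entry and was not recomputed with the second. The second entry's log2 change (-0.23) lay closer to that of Fgf4 (-0.30) than the main entry's did (-0.10). The shifts in ratios to Fgfr1 therefore depend on the entry used. In each of the 5 ratios the groups were apart, with an exact two-sided permutation p of 0.333 (0.333 adjusted over the 5), the smallest that 2 against 2 libraries allow. For Etv5 to Etv4 the gap was below the digits given, as control replicate 2 and Hnrnpk siRNA replicate 1 both read 1.5. Single genes did not overlap in 84.7% of all genes tested, and no such share for other pairs of genes is given here.

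**Figure D3:**
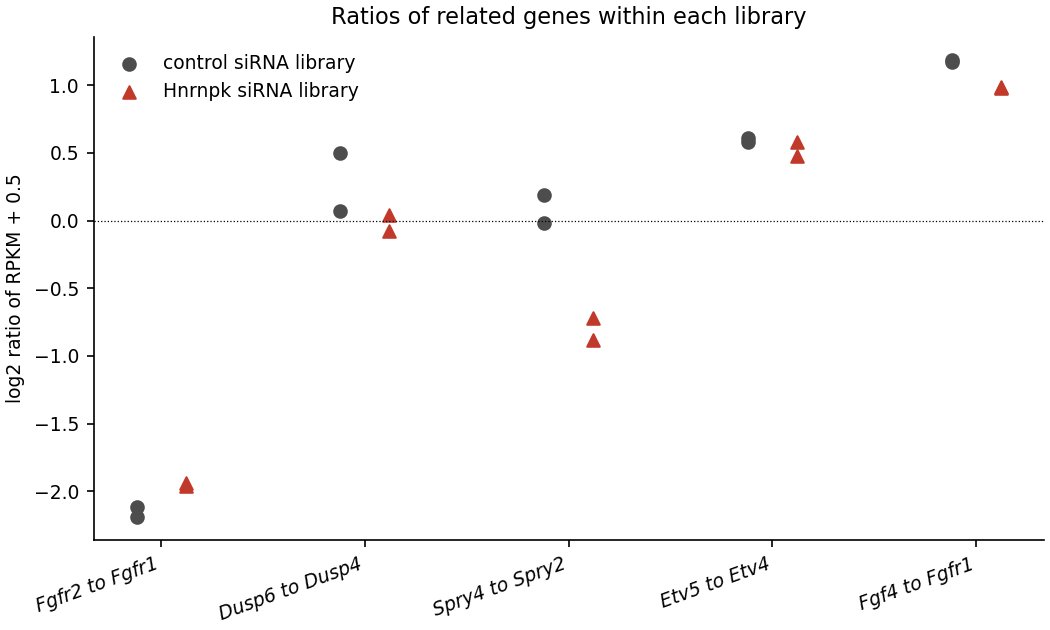
Log2 ratio of RPKM + 0.5 between 2 related genes in each control siRNA library (circles) and Hnrnpk siRNA library (triangles). Spry4 to Spry2 shows the widest gap, from means of 0.09 to -0.80, and Etv5 to Etv4 the narrowest, from 0.60 to 0.53.

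The other genes of the pathway, listed by role, went both ways as well. Counts of each list stand beside the shares over all genes tested: 67.2% called, 32.2% higher and 35.0% lower. No list was tested as a set. Among FGF ligands other than Fgf4, 5 of 17 passed the filter of a mean of at least 0.5 RPKM, with 2 called higher and 2 lower. Fgf17 stood at 11.7 and 15.0 RPKM in the controls and at 6.71 and 6.83 RPKM after Hnrnpk siRNA, a log2 change of -0.92 (limma adjusted p = 4.63e-05). Fgf18 went from 1.69 and 1.73 to 5.72 and 5.79 RPKM, a log2 change of 1.5 (limma adjusted p = 5.96e-07). Fgf15 fell (log2 change -0.45) and Fgf1 rose (0.36), each from under 2 RPKM; without Hnrnpk siRNA replicate 2 Fgf1 lost its call (adjusted p = 0.0719 in a range of 0.000742 to 0.0719), which left 1 ligand called higher. Of the FGF ligands listed, Fgf4 was the most abundant in every library. In bulk RNA, fewer cells that express a gene and less RNA per cell cannot be told apart.

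Among the other receptors and coreceptors, 4 of 8 passed the filter, with 3 called higher and 1 lower. Flrt3, a membrane protein that promotes FGF signalling, went from 1.64 and 1.5 to 3.27 and 3.25 RPKM (log2 change 0.86) in the entry used here. A further Flrt3 entry is not reported. Fgfr4 rose from 1.72 and 1.19 to 2.50 and 2.83 RPKM (0.71) and Fgfr3 from 0.665 and 0.543 to 1.10 and 1.18 RPKM (0.57). Fgfrl1, a receptor without a kinase domain, fell from 5.87 and 4.66 to 2.58 and 2.86 RPKM (-0.83). The highest limma adjusted p of these 4 was 0.000892. After Hnrnpk siRNA, Fgfr1 at 22.5 and 22.8 RPKM remained far above Fgfr2, Fgfr3 and Fgfr4.

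Of the proteins that relay the signal from the receptor to ERK, 21 of 24 listed were matched and all 21 were tested. Of these, 5 were called higher and 8 lower, with a median log2 change of -0.10. Over all genes tested 67.2% were called, so the count is close to the background. Mapk3, which encodes ERK1, fell from 73.7 and 69.5 to 43.9 and 44.3 RPKM (log2 change -0.69, limma adjusted p = 1.04e-05). The kinase gene Araf rose from 10.1 and 9.91 to 17.6 and 18.3 RPKM (0.81), and the adaptor gene Shc1 from 22.7 and 22.1 to 35.7 and 36.6 RPKM (0.68). Sos2, an exchange factor for RAS, fell (-0.46), as did Ptpn11, which encodes the phosphatase SHP2 (-0.38). The adaptor gene Frs3 rose (0.32, adjusted p = 0.0443) but lost its call with no filter and without the variance trend, and also without control replicate 2 (0.12, adjusted p = 0.246), without Hnrnpk siRNA replicate 1 (0.37, adjusted p = 0.0765) or Hnrnpk siRNA replicate 2 (0.26, adjusted p = 0.205), in a range of 0.000173 to 0.246. The 5 relay genes called higher became 3, 3 and 2 without those libraries in turn, and the 8 called lower became 5 without Hnrnpk siRNA replicate 2.

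The remaining inhibitors were also split. Of 14 tested (15 listed), 3 were called higher and 6 lower, with a median log2 change of -0.15. This count is also close to the 67.2% called over all genes tested. Dusp7, Spry1 and Spred2 fell the most: Dusp7 went from 19.0 and 17.7 to 11.1 and 10.8 RPKM (log2 change -0.72), Spry1 from 8.74 and 7.51 to 5.18 and 5.26 RPKM (-0.59), and Spred2 from 42.5 and 42.7 to 29.7 and 27.2 RPKM (-0.57). Dusp1 rose from 14.2 and 13.0 to 19.3 and 19.8 RPKM (0.51) and Dusp9, an ERK phosphatase abundant in embryonic stem cells, from 43.6 and 44.9 to 59.0 and 64.5 RPKM (0.47). The highest limma adjusted p of these 5 was 0.000251. Dusp2, under 1 RPKM in every library, was called higher (0.37, adjusted p = 0.0210) and lost its call with no filter and without Hnrnpk siRNA replicate 2 (0.22, adjusted p = 0.251, in a range of 0.00346 to 0.251), where the 6 inhibitors called lower became 3. Across the Sprouty and SPRED genes measured, Spry1, Spry4, Spred1 and Spred2 were called lower and Spry2 was called higher, under every setting tried. Spred3, at 1.56 and 1.89 RPKM in the controls and 1.34 and 1.26 RPKM after Hnrnpk siRNA, was also called lower (-0.30, adjusted p = 0.0263). It lost that call without control replicate 2 (-0.19, adjusted p = 0.0788), Hnrnpk siRNA replicate 1 (-0.33, adjusted p = 0.0905) or Hnrnpk siRNA replicate 2 (-0.27, adjusted p = 0.167), with no filter, under quantile normalization and with GC trends removed, in a range of 0.00126 to 0.167.

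Among the lists by role, other genes that respond to ERK held the widest range of log2 changes, in both directions. Of 13 tested, 6 were called higher and 5 lower, with a median log2 change of -0.02 and a median size of 0.77. Over all genes tested 32.2% were called higher and 35.0% lower, with a median size of 0.32. The immediate-early factor gene Egr1 fell from 20.5 and 24.2 to 4.31 and 4.24 RPKM (log2 change -2.25, limma adjusted p = 9.04e-08). Ier3 fell from 9.58 and 7.01 to 3.88 and 3.99 RPKM (-0.97), and Ccnd1, which encodes cyclin D1, from 35.0 and 42.8 to 22.8 and 22.1 RPKM (-0.77). Phlda1 rose from 4.85 and 5.45 to 34.5 and 33.1 RPKM (2.60, adjusted p = 2.34e-08), Plaur, the urokinase receptor gene, from 4.93 and 5.23 to 14.4 and 16 RPKM (1.5), and Hmga2 from 1.66 and 1.63 to 3.53 and 3.72 RPKM (0.95). Etv1, the third gene of the PEA3 family, lay between 1.74 and 2.16 RPKM in all libraries and was not called (-0.13, adjusted p = 0.236), except with GC trends removed (-0.28, adjusted p = 0.0171, in a range of 0.0171 to 0.901).

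**Figure D4:**
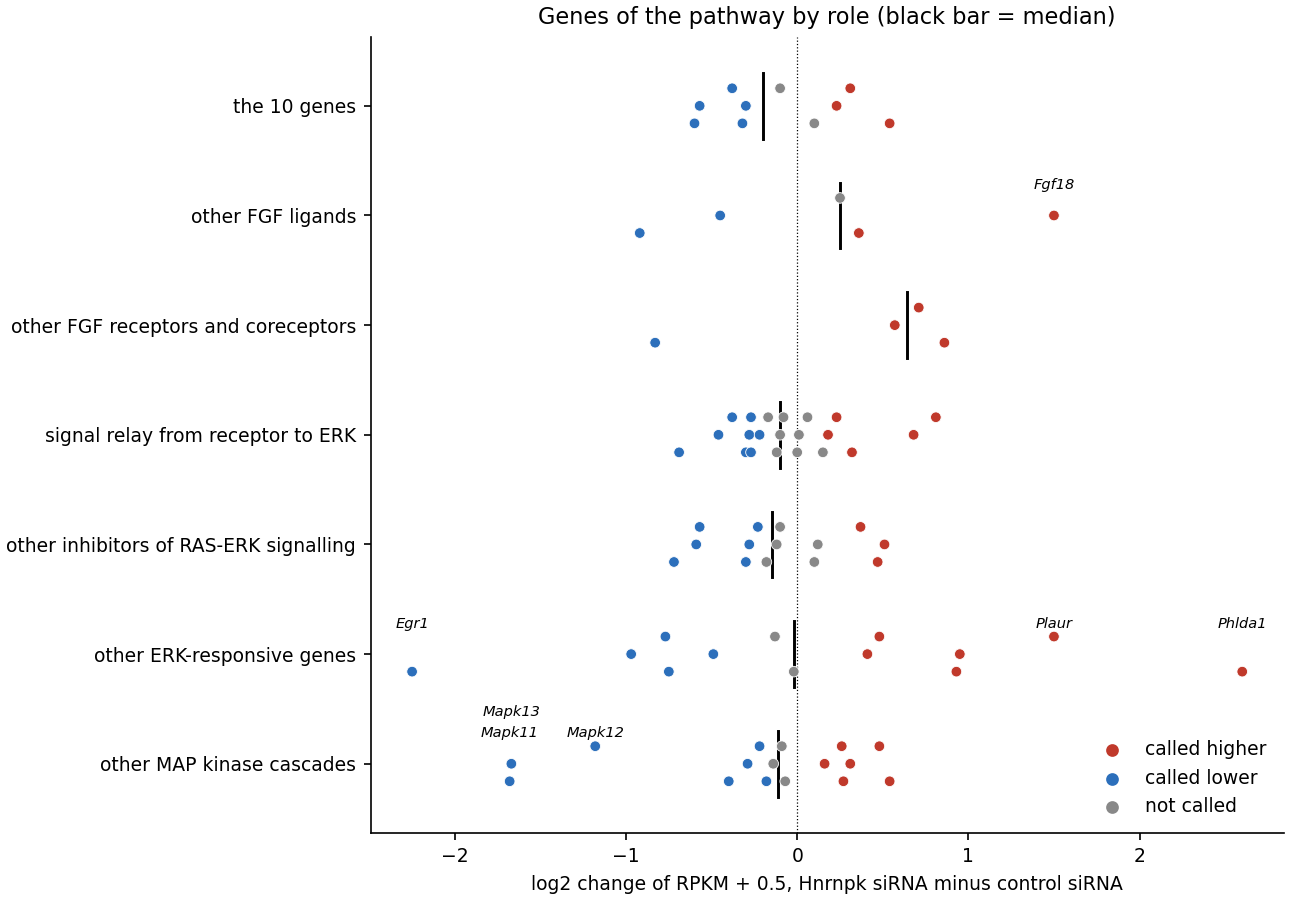
Log2 change of RPKM + 0.5 (Hnrnpk siRNA minus control siRNA) of every tested gene, 1 point each, for the 10 genes and 6 lists by role, coloured by limma's call, with a black bar at each median and names for genes with a change of at least 1 in size. Each row has points on both sides of 0, from -2.25 for Egr1 to 2.60 for Phlda1.

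Cell type markers were read in the same libraries. Their counts stand beside 32.2% called higher and 35.0% called lower over all genes tested. Of the 10 embryonic stem cell markers, 3 were called higher, 3 lower and 4 not, among them Nanog at 204 and 190 RPKM in the controls and 353 and 342 RPKM after Hnrnpk siRNA, and Sox2 at 231 and 195 against 147 and 146 RPKM. Their summed level was 4080 to 4240 RPKM in the controls and 4880 to 5230 RPKM after Hnrnpk siRNA. Dppa5a alone carried that rise: the other 9 markers summed to 2917 and 2805 RPKM in the controls and to 2720 and 2776 RPKM after Hnrnpk siRNA. For primitive endoderm, 6 of 8 tested markers (10 listed) were called higher and 1 lower. Only 7 of the 8 averaged at least 0.5 RPKM in the controls. The other, Pdgfra, passed the filter only through the Hnrnpk siRNA libraries, which favours a call of higher, so its call adds no support. The summed level was 33.4 to 34.4 RPKM in the controls and 72.1 to 74.0 RPKM after Hnrnpk siRNA. Gata6 rose from 0.721 and 0.565 to 13.7 and 14.1 RPKM (21.6-fold by the means), and Sox7, Dab2 and Col4a1 rose 4.04-fold, 3.95-fold and 3.46-fold. Lamb1, the highest of this list in the controls, was the marker called lower, from 12.6 and 12.4 to 9.05 and 9.01 RPKM. Lama1, the next highest, was not called (9.81 and 9.15 to 9.99 and 9.94 RPKM). Pdgfra, with means of 0.17 RPKM in the controls and 0.898 RPKM after Hnrnpk siRNA (5.29-fold), was under 1 RPKM in every library. The untested Sox17 and Foxa2 had means 5.39 and 6.57 times those of the controls, also under 1 RPKM in every library. For trophectoderm, 6 of 7 tested markers (9 listed) were called higher and 1 lower, with sums of 73.9 to 77.0 and 102 to 107 RPKM. Gata3 rose from 0.581 and 0.568 to 5.32 and 5.28 RPKM (9.23-fold), Eomes 3.92-fold and Hand1 3.73-fold. Tfap2c (listed as Tcfap2c), the highest of this list in the controls, was the marker called lower, from 42.2 and 33.7 to 28.2 and 28.6 RPKM. Cdx2 and Elf5 were too low to test. Cdx2 stood at 0.166 and 0.303 RPKM in the controls and 0.731 and 0.749 RPKM after Hnrnpk siRNA. Elf5 was lower after Hnrnpk siRNA, at 0.105 and 0.109 RPKM in the controls against 0.0608 and 0.0705 RPKM. Markers of primed or formative epiblast, 2 called higher and 3 lower of 6 tested (9 listed), summed to 101 to 113 RPKM in the controls and 55.9 to 58.1 RPKM after Hnrnpk siRNA. Dnmt3b made up most of these sums, at 81.6 and 93.5 RPKM in the controls and 40.8 and 37.8 RPKM after Hnrnpk siRNA. Fgf5 and Fgf8, also ligands above, were under 1 RPKM. Fibroblast markers, 0 called higher and 2 lower of 3 tested (8 listed), summed to 8.79 to 10.4 and 5.05 to 5.31 RPKM. None of these markers was listed at 0 in all 4 libraries, and their part in the values of the FGF-ERK genes was not tested.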

How the data were processed

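RNA (the labels name both rRNA depletion and poly(A) selection) was sequenced in 4 libraries, 2 per siRNA, which the series' design text calls biological replicates. The authors deposited RPKM for each gene, 1 column for each library; BWA, SAMtools and build mm9 are named in the submitters' processing notes, with no versions; the sources used here do not give the counting tool, annotation or strandedness. Whole reads were not recovered: 27.33% to 29.05% of low values of single-exon genes lay within 0.02 of a whole number, so the depth per library is unknown and no count model was used. Groups were compared on log2(RPKM + 0.5) with limma 3.58.1 (R 4.3.3, mean-variance trend, moderated two-sided tests) over 12486 genes averaging 0.5 RPKM or more, all 10 members included, and adjusted by Benjamini-Hochberg; an exact permutation test was used for ratios. The fit was also run on simulated data in which 200 of 12486 genes were changed, by 0.5 or 1 in log2 units. There, 9 of 200 calls were false. In the real data 67.2% of genes were called, so the simulation does not show how often the real calls are false. Positions and exons come from GENCODE M21 (GRCm38), matched by identifier, and may differ from the authors' annotation. Shared sequence was searched with BLAST 2.17.0 (95% identity over at least 100 bases). The genes named are all 10 members, Hnrnpk, and in each list by role up to 3 called rises and 3 called falls with the largest change whose groups do not overlap; Etv1, Spred3, Mapk14, Vps35 and single markers were picked in addition, with their values known. Where a symbol had more than 1 entry, the identifier found in GENCODE M21 was used. Besides Fgfr1 this held for Flrt3, Dab2 and Dusp8, whose second entries are not reported, so their levels may depend on the entry used. Members and lists were chosen with earlier results of these data known. Alternatives were 13 other settings and, chosen after seeing the data, the second Fgfr1 identifier and GC trends removed for ratios.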

Additional observations from a re-analysis of the deposited data

How the results depend on the processing

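The markers Dnmt3b, Lamb1, Lama1 and Tfap2c were read in the main fit only. No log2 change of the remaining named, tested genes and no member median changed sign under the 13 other settings (other added values, filters, scalings, GC trends removed, no variance trend, the replicate block, and leaving out each library) or with the second Fgfr1 identifier. The 5 ratios kept their signs under both added values, quantile normalization, GC trends removed (chosen after seeing the data) and each library left out. They were not recomputed with the second Fgfr1 identifier. The median over all genes was between -0.024 and 0.003. The calls, or lack of one, of 7 of the 10 members held throughout. Dusp6 kept its sign but lost its call with no filter on low values (log2 change 0.23), under quantile normalization (0.20), with GC trends removed (0.22) and without the variance trend (0.23), and ranged from 0.11 to 0.35 without 1 library at a time. With GC trends removed, Etv4 had -0.17 and the median of the members was -0.10; without 1 library at a time that median ranged from -0.21 to -0.13. Fgfr1 was called lower only under its second identifier (-0.23). With no filter, 5 FGF ligands, 5 receptors and coreceptors and 3 relay genes were called higher, and 3 relay genes without the variance trend. Without 1 library at a time, the ligands called higher ranged from 1 to 3, relay genes higher from 2 to 6 and lower from 5 to 8, other inhibitors lower from 3 to 6, and other MAP kinase genes lower from 4 to 8. Of 32 list genes named by the rule, 29 kept their calls, the exceptions being Frs3, Dusp2 and Fgf1. Of 16 further tested genes carried through the settings, Hnrnpk and others picked with their values known, 13 did, the exceptions being Spred3, Mapk14 and Etv1. The labels give replicate numbers without saying that they pair libraries. The deviations of replicate 1 in the 2 groups correlated at 0.0267 across genes, and with the replicate block 3 members were called higher and 5 lower, as without it, and 4162 and 4460 genes in all. Where a group kept 1 library, it was assumed to vary like the other group. The depth is unknown; 12 of the 17 other FGF ligands were too low to test.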

Other observations

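Genes of the other MAP kinase cascades, listed by name, showed their largest changes among the p38 kinases. The counts called in this list, given last, stand beside 67.2% called over all genes tested. Mapk11, which encodes p38 beta, stood at 6.05 and 6.04 RPKM in the controls and at 1.53 and 1.55 RPKM after Hnrnpk siRNA (log2 change -1.68). Mapk13, p38 delta, fell from 18.0 and 13.7 to 4.51 and 4.70 RPKM (-1.67), and Mapk12, p38 gamma, from 7.30 and 6.51 to 2.75 and 2.79 RPKM (-1.18), with a highest limma adjusted p of 2.88e-06 among the 3. Mapk14, p38 alpha, the most abundant of the family and named after its values were seen, measured 45.3 and 47.9 RPKM in the controls and 51.3 and 53.2 RPKM after Hnrnpk siRNA (0.16, adjusted p = 0.0433). Its call was lost without control replicate 1 (0.12, adjusted p = 0.185), Hnrnpk siRNA replicate 1 (0.19, adjusted p = 0.0743) or Hnrnpk siRNA replicate 2 (0.14, adjusted p = 0.186), under quantile normalization and without the variance trend, in a range of 0.0174 to 0.186. Mapk7, which encodes ERK5, rose from 34.3 and 32.8 to 46.1 and 47.8 RPKM (0.48), the kinase gene Map2k4 from 33.2 and 33.4 to 42.0 and 41.0 RPKM (0.31), and Dusp10, a phosphatase of p38 and JNK, from 1.32 and 1.09 to 1.82 and 2.14 RPKM (0.54). Of 16 tested genes of this list, 6 were called higher and 7 lower, with a median log2 change of -0.12; without Hnrnpk siRNA replicate 1 the 7 became 4.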
